A study of Mus musculus with 12 samples.

Results

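Lysosomes are the acidic compartments in which cells break down proteins, lipids and sugars, and autophagy is the route that brings a cell's own cytoplasm to them. The 40 genes described here encode lysosome membrane proteins, soluble hydrolases, the proton pump, the machinery that builds autophagosomes, an autophagy receptor and transcription factors of the pathway. They were taken by gene name, by a rule that uses no measured value, although earlier results of these data were known when the list was drawn up. The deposited table held all 40 of them among its 17340 genes, and the filter on low counts removed 0 genes. RNA was measured by sequencing in the KPC line of mouse pancreatic cancer cells, whose genotype label reads C57BL/6, after 48 h with 1 µM JQ1, 1 µM I-BET151 or 1 µM ITF2357, or in control cells, with 3 libraries per group and 12 in all. The control is labelled both as untreated and as PBS, and the sources used here do not give the solvent of the compounds. Nothing in the labels tells separate cultures from repeat libraries of 1 culture, so the p-values cover only the spread seen between these libraries, and it may be technical. In bulk RNA of this kind, fewer cells expressing a gene and less of its RNA per cell cannot be told apart.

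JQ1 and I-BET151 are inhibitors of BET proteins, bromodomain readers of acetylated histones, and ITF2357 (givinostat) is an inhibitor of histone deacetylases. Lysosome and autophagy genes are known to be switched on together by TFEB and its relative TFE3, which bind E-boxes in their promoters, above all a palindrome called the CLEAR element. When nutrients are plentiful the kinase mTORC1, which works on the lysosome surface, keeps TFEB and TFE3 in the cytoplasm, so the activity of these factors is set in large part by location and not by their mRNA. Pancreatic cancer cells are known for high autophagy and a large lysosome compartment.

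Library totals ranged from 21 to 31.2 M counts and the common biological coefficient of variation was 3.37%. Values per library are CPM, that is counts relative to the library total, which TMM factors adjust for differences in composition. Fold changes are log2 values fitted by edgeR with their standard error (SE), and a gene was called at a Benjamini-Hochberg adjusted p under 0.05 of edgeR's quasi-likelihood test over all 17340 genes. All 5 listed epithelial markers were measured, with summed levels of 3100.4 to 3178 CPM in JQ1 libraries, 4274 to 4335 CPM in I-BET151 libraries, 4560.1 to 4758 CPM in ITF2357 libraries and 2903 to 2991 CPM in control libraries. Epcam added little to these sums, with a mean of 1.75 CPM in control libraries. With JQ1, Cdh1 (0.27) and Krt19 (0.20) were called higher and Krt18 (-0.09) lower, and Krt8 and Epcam were not called. Of 7 macrophage and leukocyte markers, a cell type rich in lysosomes, only Cd68 and Cd14 were measured, with sums of 62 to 66.6 CPM in JQ1, 56.6 to 62.6 CPM in I-BET151, 102 to 105 CPM in ITF2357 and 47.7 to 49.4 CPM in control libraries. With ITF2357 the markers moved apart, Cd14 rising by 1.26 (98.8 ± 1.35 CPM in ITF2357 against 41.4 ± 0.34 CPM in control libraries) and Cd68 falling, at -0.70 (4.33 ± 0.295 CPM in ITF2357 against 7 ± 0.594 CPM in control libraries, mean ± SD, n = 3). The defining markers Ptprc, Csf1r, Adgre1, Lyz2 and Itgam were not analysed here, and the part of other cells in the results below was not tested. The fibroblast list had 3 of 6 genes measured, at 20.8 to 26.5 CPM in JQ1, 6.75 to 7.72 CPM in I-BET151, 20.2 to 23.1 CPM in ITF2357 and 21.8 to 22.8 CPM in control libraries. Within that sum, ITF2357 gave called changes of 0.65 for Pdgfra, -1.73 for Pdgfrb and -0.37 for Col1a1, in opposite directions. I-BET151 gave called falls in all 3, at -1.50 for Pdgfra, -0.69 for Pdgfrb and -1.90 for Col1a1. The 2 of 4 endothelial and 1 of 5 acinar genes measured were at or under 7.04 CPM in all groups. At these low levels the endothelial gene Kdr was called at -2.86 with I-BET151 and -2.31 with ITF2357. The acinar gene Cela1 was called at -3.13 with I-BET151 and 0.67 with ITF2357.

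Promoter windows from RefSeq (build GRCm38.p6, 250 bases before to 50 after the start site) were found for 33 of the 40 genes and were searched on both strands for the palindromes CACGTG, the E-box, and TCACGTGA, the core of the CLEAR element, which contains the E-box. The core stood in the windows of 7 of the 33 genes (21.2%), against 304 of all 27025 genes with a window (1.12%). The E-box stood in 14 of the 33 (42.4%), against 8.09% of all genes. Of the 112 other lysosome and autophagy genes with a window, 9.82% held the core and 22.3% the E-box. These matches are letters in a sequence and no measure of binding. The 40 genes were chosen as genes of the pathway for which this motif is known. Their higher share is therefore background and no result of these data. The 7 stretches with the core, and that of Lamp1, which was chosen for its 4 E-boxes after they were seen, are shown because they carry the motif of the pathway's own transcription factors. Each is written 5′ to 3′ on the strand of the gene, with the core in capitals (the E-box for Lamp1) and every other base in lower case. The stretches of Cln3, Ctsa, Ctsd and Mcoln1 are 30 bases long and lie within annotated GENCODE M21 exons of the gene. The other 4 are 60 bases long and hold no GENCODE M21 exon base of the gene, apart from 3 bases of Atp6v0d1. By the RefSeq start site, the last 20 bases of the Atp6v0d1 stretch lie from that site on.
Ctsa: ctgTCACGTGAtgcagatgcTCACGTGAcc
Ctsd: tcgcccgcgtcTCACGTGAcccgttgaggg
Mcoln1: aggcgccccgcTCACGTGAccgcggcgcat
Cln3: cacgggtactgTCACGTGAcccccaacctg
Gla: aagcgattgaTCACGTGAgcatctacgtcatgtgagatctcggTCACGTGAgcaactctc
Atp6v0d1: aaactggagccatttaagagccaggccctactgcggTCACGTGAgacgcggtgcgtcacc
Atp6v1a: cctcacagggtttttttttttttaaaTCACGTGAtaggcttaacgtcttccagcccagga
Lamp1: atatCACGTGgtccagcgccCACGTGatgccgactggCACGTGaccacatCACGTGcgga
Their positions in GRCm38.p6 are chr2:164833757-164833786 (plus strand) for Ctsa, chr7:142387908-142387937 (minus) for Ctsd, chr8:3500462-3500491 (plus) for Mcoln1, chr7:126583340-126583369 (minus) for Cln3, chrX:134601184-134601243 (minus) for Gla, chr8:105566045-105566104 (minus) for Atp6v0d1, chr16:44139358-44139417 (minus) for Atp6v1a and chr8:13159096-13159155 (plus) for Lamp1. Counted from the start site as base 0, the core began at -4 in Atp6v0d1, at -46 in Mcoln1, at -99 in Ctsd, at -122 in Cln3 and at -132 in Atp6v1a, and it stood in 2 copies in Ctsa (-13 and 4) and Gla (-228 and -195). The 4 E-boxes of Lamp1 lay between -61 and -15, close together just before the start site.

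The comparison of each compound with the control asked how the cells' RNA changed under BET or histone deacetylase inhibition. With I-BET151, most genes of the lysosome and of autophagosome formation rose: 28 of the 40 were higher and 8 lower, where 30.5% of all 17340 genes were called higher and 32.6% lower. Of the 28, 17 rose at least 1.5-fold (12.2% of all genes), and none of the 8 fell that far (17.7% of all genes). With ITF2357, 18 were higher and 8 lower (27.6% and 26.4% of all genes), and Ctsh alone rose and Sqstm1 alone fell at least 1.5-fold (9.86% and 8.82% of all genes). With JQ1, 5 were higher and 8 lower (12.5% and 12.3% of all genes), so that the share higher, 12.5%, was that of all genes, and no gene passed 1.5-fold in either direction (1.43% and 0.928% of all genes). The median log2 fold change of the 40 genes was -0.03 under JQ1, 0.45 under I-BET151 and 0.03 under ITF2357, and that of all genes was 0.00 under JQ1, -0.03 under I-BET151 and -0.01 under ITF2357. The 3 comparisons share the same 3 control libraries. The shares of all genes, here and below, come from genes not matched for level. In control libraries the median was 15 RPKM, a level per gene length, for the 40 genes and 4.15 RPKM for all genes. The part of level in these contrasts was not tested.

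Together the 40 genes took 0.455% of all counts in each JQ1 library, 0.592% ± 0.00321 in I-BET151 libraries, 0.472% ± 0.00366 in ITF2357 libraries and 0.479% ± 0.00301 in control libraries (SD, n = 3). The 3 I-BET151 libraries, at 0.589% to 0.596%, lay above the other 9, which spanned 0.455% to 0.481%. The splits depended in part on the scaling of the libraries. Scaling by library totals moved the median of all genes by -0.16 for I-BET151 against control, from -0.03 to -0.19. Under that scaling 23 of the 40 genes were higher and 10 lower, and their median was 0.29, all taken against 0 and not against the moved median. For ITF2357 library totals gave 15 higher and 11 lower, and upper quartile factors gave 13 higher and 11 lower. The median of all genes was -0.04 with library totals and -0.05 with upper quartile factors, and that of the 40 genes 0.00 and -0.01. Shares of all genes called were not worked out under other scalings or with a library left out, here or below. Counts under these settings therefore have no such share beside them. For JQ1, upper quartile factors gave 7 higher and 4 lower in place of 5 and 8, and leaving out any 1 of the 12 libraries gave 3 to 6 higher and 4 to 9 lower. The JQ1 counts were 3 higher and 7 lower without control library 1, 3 and 4 without control library 2, 3 and 6 without control library 3, 3 and 5 without JQ1 library 1, and 4 and 4 without JQ1 library 2.

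**Figure D1:**
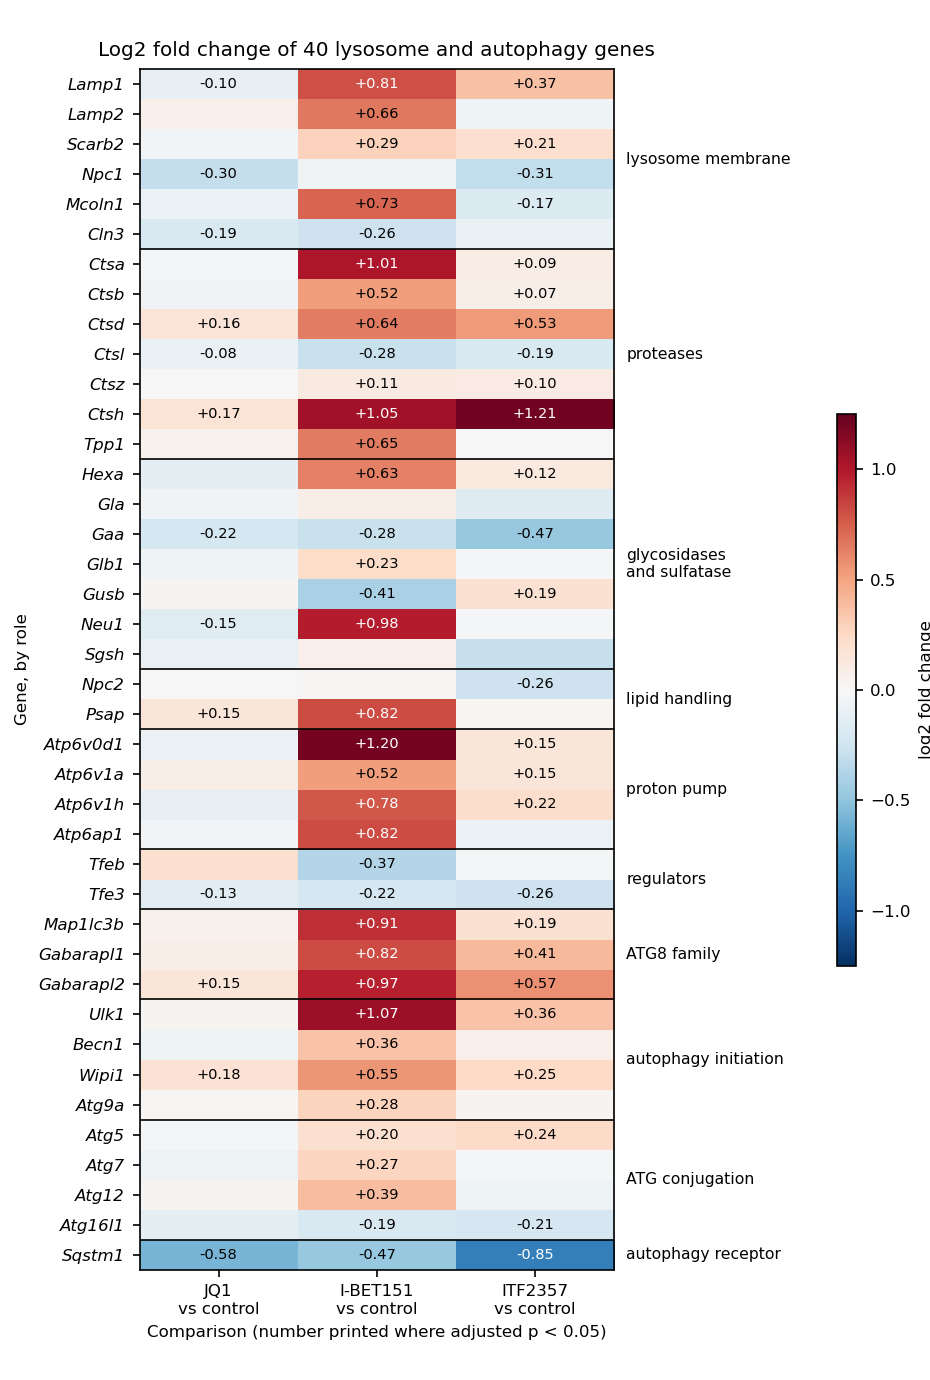
Log2 fold change of the 40 genes (rows, by role) with JQ1, I-BET151 and ITF2357 against control (columns), red for higher and blue for lower. A number is printed where the gene was called, which was so for 36 genes with I-BET151, 26 with ITF2357 and 13 with JQ1, and Sqstm1 at the foot is blue in all 3 columns.

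Among the 6 lysosome membrane genes, 4 rose and 1 fell with I-BET151, 2 rose and 2 fell with ITF2357, and 3 fell with JQ1. Lamp1 (chr8:13159161-13175338, plus strand, mm10), an abundant glycoprotein lining the lysosome, had 416, 435 and 456 CPM in the JQ1 libraries, 818, 786 and 855 CPM in the I-BET151 libraries, 641, 609.8 and 568 CPM in the ITF2357 libraries and 463, 479.8 and 461 CPM in the control libraries. The I-BET151 libraries were highest, the ITF2357 libraries lay between them and the control, and no library of either overlapped the control. Lamp1 rose by 0.81 ± 0.03 (SE, edgeR adjusted p = 9.81e-21) with I-BET151 and by 0.37 ± 0.03 (SE, edgeR adjusted p = 1.57e-11) with ITF2357. With JQ1 its value was -0.10 ± 0.03 (SE, edgeR adjusted p = 0.024), and it was no longer called with upper quartile factors, with DESeq2 (adjusted p = 0.187) and without control library 2, JQ1 library 1 or JQ1 library 2. The annotated exons of Lamp1 share bases with Grtp1 on the opposite strand.

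Lamp2, the lysosomal receptor of chaperone-mediated autophagy, had 313, 294 and 299 CPM in the JQ1 libraries, 453, 459 and 463 CPM in the I-BET151 libraries, 276, 289 and 273 CPM in the ITF2357 libraries and 291, 285 and 292 CPM in the control libraries. The I-BET151 libraries stood far above the rest, the JQ1 libraries lay just above the control, and those of ITF2357 overlapped it. Lamp2 rose by 0.66 ± 0.03 (SE, edgeR adjusted p = 3.03e-21) with I-BET151. With JQ1 the value was 0.06 ± 0.03 (SE, edgeR adjusted p = 0.0831). It was called there with upper quartile factors (0.09), with DESeq2 (0.07), in a fit of only the groups compared (0.06) and without JQ1 library 2 or ITF2357 library 2 or 3. With ITF2357 it was -0.05 ± 0.03 (SE, edgeR adjusted p = 0.112), called with library totals (-0.08), with upper quartile factors (-0.09) and without ITF2357 library 2 (-0.07). Mcoln1, the calcium channel mucolipin 1 that is opened under starvation, had 65.2, 69.1 and 64.8 CPM in the JQ1 libraries, 120.5, 115 and 112 CPM in the I-BET151 libraries, 63.3, 58 and 63.3 CPM in the ITF2357 libraries and 69.2, 73.8 and 65.4 CPM in the control libraries. It was raised in all 3 I-BET151 libraries and lowest in the ITF2357 libraries, and the JQ1 libraries overlapped the control. The fold changes were 0.73 ± 0.04 (SE, edgeR adjusted p = 2.03e-16) with I-BET151, -0.17 ± 0.05 (SE, edgeR adjusted p = 0.00171) with ITF2357 and -0.07 ± 0.05 (SE, edgeR adjusted p = 0.322) with JQ1.

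Npc1, which carries cholesterol out of the lysosome, had 70.9, 75.7 and 72.4 CPM in the JQ1 libraries, 82.9, 89.1 and 89.3 CPM in the I-BET151 libraries, 72.4, 72.4 and 73 CPM in the ITF2357 libraries and 89, 92.6 and 88.3 CPM in the control libraries. Its 3 JQ1 libraries and 3 ITF2357 libraries lay below every control library, and the I-BET151 libraries overlapped the control. Npc1 fell by 0.30 ± 0.04 (SE, edgeR adjusted p = 1.63e-07) with JQ1 and by 0.31 ± 0.04 (SE, edgeR adjusted p = 1.9e-08) with ITF2357, and its value with I-BET151 was -0.04 ± 0.04 (SE, edgeR adjusted p = 0.315); with library totals it was called lower there too, at -0.21. Scarb2, the carrier that brings glucocerebrosidase to lysosomes, rose with I-BET151 (0.29) and ITF2357 (0.21). Cln3, a membrane protein mutated in juvenile Batten disease, fell with I-BET151 (-0.26) and with JQ1 (-0.19), the JQ1 call being lost with upper quartile factors, with DESeq2 (adjusted p = 0.0599) and without control library 2 or 3 or JQ1 library 2 or 3.

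Of the 7 proteases, 6 rose and 1 fell with I-BET151, 5 rose and 1 fell with ITF2357, and 2 rose and 1 fell with JQ1. Ctsh (chr9:90054152-90076089, plus strand, mm10), the aminopeptidase cathepsin H, had 32.2, 30.8 and 29.1 CPM in the JQ1 libraries, 56.4, 57 and 56.6 CPM in the I-BET151 libraries, 64.8, 65 and 60.2 CPM in the ITF2357 libraries and 25.8, 27.5 and 28.7 CPM in the control libraries. Its levels in I-BET151 and ITF2357 libraries were far above those of the control with no overlap, and the JQ1 libraries lay just above the control. The rise was 1.21 ± 0.05 (SE, edgeR adjusted p = 3.64e-20) with ITF2357, the largest of the 40 genes there, and 1.05 ± 0.05 (SE, edgeR adjusted p = 1.82e-18) with I-BET151. With JQ1 it was 0.17 ± 0.06 (SE, edgeR adjusted p = 0.0238), but leaving out control library 1 or 2 or JQ1 library 1 or 2 ended that call. Ctsd, the aspartyl protease cathepsin D, had 179, 183 and 181 CPM in the JQ1 libraries, 249, 255 and 254 CPM in the I-BET151 libraries, 235, 229 and 237 CPM in the ITF2357 libraries and 161, 159 and 166 CPM in the control libraries. Each treated group lay above the control without overlap, JQ1 least. Ctsd rose by 0.64 ± 0.03 (SE, edgeR adjusted p = 1.81e-20) with I-BET151, by 0.53 ± 0.03 (SE, edgeR adjusted p = 6.21e-18) with ITF2357 and by 0.16 ± 0.03 (SE, edgeR adjusted p = 3.03e-05) with JQ1.

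Ctsb, the cysteine protease cathepsin B, had 231, 227 and 222 CPM in the JQ1 libraries, 333, 335 and 335 CPM in the I-BET151 libraries, 247, 238 and 248 CPM in the ITF2357 libraries and 231, 234 and 234 CPM in the control libraries. The 3 I-BET151 libraries were higher than all others. Ctsb rose by 0.52 ± 0.03 (SE, edgeR adjusted p = 1e-18) with I-BET151, and its smaller rise with ITF2357 (0.07, edgeR adjusted p = 0.0275) was lost with library totals, with upper quartile factors, in a fit of only the groups compared and without control library 1 or ITF2357 library 1 or 3. Ctsl, the cysteine protease cathepsin L, had 296, 294 and 307 CPM in the JQ1 libraries, 254, 263 and 267 CPM in the I-BET151 libraries, 275, 281 and 277 CPM in the ITF2357 libraries and 324, 310.3 and 317 CPM in the control libraries. It was lowest in I-BET151 libraries and highest in control libraries, with no overlap between the control and any treated group. Ctsl fell by 0.28 ± 0.03 (SE, edgeR adjusted p = 3.71e-11) with I-BET151 and by 0.19 ± 0.03 (SE, edgeR adjusted p = 1.4e-07) with ITF2357. With JQ1 the value was -0.08 ± 0.03 (SE, edgeR adjusted p = 0.0153), lost with upper quartile factors and without control library 1 or JQ1 library 1 or 2.

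Ctsa, a carboxypeptidase that also shields neuraminidase 1 and beta-galactosidase, had 181 ± 1.92 CPM in JQ1, 371 ± 5.69 CPM in I-BET151, 196 ± 3.05 CPM in ITF2357 and 184 ± 1.47 CPM in control libraries (mean ± SD, n = 3). It rose by 1.01 ± 0.03 (SE, edgeR adjusted p = 7.71e-27) with I-BET151 and by 0.09 with ITF2357, the second call being lost with upper quartile factors. Its exons share bases with Pltp and Neurl2 on the opposite strand. Tpp1, a tripeptidyl peptidase, rose by 0.65 with I-BET151 and was not called with the other compounds, with values of 0.04 with JQ1 and 0.00 with ITF2357. Ctsz, a carboxypeptidase, was called higher with I-BET151 (0.11) and ITF2357 (0.10), but library totals turned the I-BET151 value to -0.05. Its I-BET151 call was also lost without control library 1 or I-BET151 library 1. Its ITF2357 call was lost with library totals, with upper quartile factors and without control library 1 or 2 or ITF2357 library 1 or 3.

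The glycosidases and the sulfatase did not move as a block: with I-BET151, 3 of 7 rose and 2 fell. Neu1, which trims sialic acids, had 63.4 ± 1.91 CPM in JQ1, 139 ± 3.31 CPM in I-BET151, 69.5 ± 1.98 CPM in ITF2357 and 70.4 ± 4.78 CPM in control libraries (mean ± SD, n = 3). It rose by 0.98 ± 0.04 (SE, edgeR adjusted p = 8.17e-21) with I-BET151, and its fall with JQ1 (-0.15) was lost without control library 2 or JQ1 library 1. Hexa, the alpha chain of beta-hexosaminidase, rose with I-BET151 (0.63), and its call with ITF2357 (0.12) was lost with library totals, with upper quartile factors and without control library 1 or 2 or ITF2357 library 1 or 2. Glb1, the beta-galactosidase used as a senescence stain, rose with I-BET151 (0.23), a call lost with library totals.

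Gusb, the beta-glucuronidase, had 49.5, 48.4 and 47.9 CPM in the JQ1 libraries, 37.1, 35.1 and 35 CPM in the I-BET151 libraries, 57.1, 51.1 and 54.1 CPM in the ITF2357 libraries and 45.2, 50.3 and 47.2 CPM in the control libraries. The I-BET151 libraries lay below all others and the ITF2357 libraries above the control. Gusb fell by 0.41 ± 0.05 (SE, edgeR adjusted p = 2.24e-08) with I-BET151 and rose by 0.19 ± 0.05 (SE, edgeR adjusted p = 0.00141) with ITF2357. Gaa, which degrades lysosomal glycogen, had 108, 115 and 108 CPM in the JQ1 libraries, 105, 102 and 110 CPM in the I-BET151 libraries, 93.5, 88 and 95.9 CPM in the ITF2357 libraries and 125, 128 and 132 CPM in the control libraries. All treated libraries lay under the control, lowest with ITF2357. Gaa fell by 0.47 ± 0.04 (SE, edgeR adjusted p = 7.31e-13) with ITF2357, by 0.28 ± 0.04 (SE, edgeR adjusted p = 7.52e-08) with I-BET151 and by 0.22 ± 0.04 (SE, edgeR adjusted p = 2.78e-05) with JQ1. Gla, the alpha-galactosidase A, and Sgsh, a heparan sulfatase, were not called against the control under the settings chosen for the report, with values between -0.29 and 0.08. Both were called lower with ITF2357 under some others, Gla at -0.18 with library totals, -0.19 with upper quartile factors and -0.21 without control library 2, and Sgsh at -0.38 without control library 1.

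Of the lipid handling genes, Psap, the precursor of the saposins that help enzymes reach membrane lipids, rose by 0.82 ± 0.02 (SE, edgeR adjusted p = 1.47e-25) with I-BET151 and by 0.15 ± 0.02 (SE, edgeR adjusted p = 5.37e-06) with JQ1. It had 434 ± 8.65 CPM in JQ1, 690.3 ± 6.69 CPM in I-BET151, 397 ± 5.81 CPM in ITF2357 and 391 ± 6.32 CPM in control libraries (mean ± SD, n = 3), and the ITF2357 libraries overlapped the control. Npc2, the soluble cholesterol carrier that hands over to NPC1, fell with ITF2357 (-0.26 ± 0.04 SE, edgeR adjusted p = 6.08e-07). With I-BET151 its value was 0.01 ± 0.04 (SE, edgeR adjusted p = 0.781), which library totals turned to -0.15 and called.

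All 4 proton pump genes rose with I-BET151, 3 rose with ITF2357 and none was called with JQ1. These genes encode parts of the V-ATPase, which acidifies the lysosome. Atp6v0d1 (chr8:105524465-105566047, minus strand, mm10), a subunit that joins the membrane sector to the stalk, had 36.9, 35.6 and 35.5 CPM in the JQ1 libraries, 84.2, 89.1 and 88.1 CPM in the I-BET151 libraries, 42.9, 41.7 and 41.5 CPM in the ITF2357 libraries and 34.4, 40.4 and 39.1 CPM in the control libraries. The I-BET151 libraries stood far above the rest, and the ITF2357 libraries lay just above the control. Its rise of 1.20 ± 0.05 (SE, edgeR adjusted p = 6.4e-21) with I-BET151 was the largest of the 40 genes in any comparison with the control but that of Ctsh with ITF2357. With ITF2357 it was 0.15 ± 0.05 (SE, edgeR adjusted p = 0.0152), and it was no longer called with upper quartile factors and without control library 1 or ITF2357 library 1. The accessory subunit Atp6ap1 rose by 0.82, the regulatory subunit Atp6v1h by 0.78 and the catalytic subunit Atp6v1a by 0.52 with I-BET151. Atp6v1h also rose by 0.22 and Atp6v1a by 0.15 with ITF2357. Atp6ap1, at -0.07, was called lower there with library totals (-0.10), with upper quartile factors (-0.11) and without control library 1 or ITF2357 library 3. With JQ1 the 4 values lay between -0.10 and 0.07, and Atp6v1a was called there with DESeq2 (adjusted p = 0.0465), with its size factors in edgeR and with upper quartile factors.

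The transcription factor genes among the 40, Tfeb and Tfe3, were both lower with I-BET151. Tfeb (chr17:47737030-47792419, plus strand, mm10) had 12.5, 12.5 and 13.1 CPM in the JQ1 libraries, 8.49, 9.03 and 8 CPM in the I-BET151 libraries, 11.6, 10 and 11.1 CPM in the ITF2357 libraries and 10.1, 11 and 12 CPM in the control libraries. The I-BET151 libraries lay below all others, the JQ1 libraries above the control, and the ITF2357 libraries overlapped it. Tfeb fell by 0.37 ± 0.10 (SE, edgeR adjusted p = 0.00142) with I-BET151, and its values were 0.20 ± 0.09 (SE, edgeR adjusted p = 0.109) with JQ1 and -0.01 ± 0.09 (SE, edgeR adjusted p = 0.929) with ITF2357. Tfe3 had 68.2, 63.5 and 65.7 CPM in the JQ1 libraries, 64.5, 63 and 58.3 CPM in the I-BET151 libraries, 61, 59.1 and 61.3 CPM in the ITF2357 libraries and 69.4, 74.8 and 72.5 CPM in the control libraries. Every treated library was below every control library. Tfe3 fell by 0.22 ± 0.04 (SE, edgeR adjusted p = 4.45e-05) with I-BET151, by 0.26 ± 0.04 (SE, edgeR adjusted p = 5.2e-06) with ITF2357 and by 0.13 ± 0.04 (SE, edgeR adjusted p = 0.0211) with JQ1, the JQ1 call being lost with upper quartile factors and without control library 2 or 3 or JQ1 library 2 or 3. These are mRNA levels and say nothing of the place or activity of the proteins.

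The 3 ATG8 family genes, whose proteins are joined to lipid on the growing autophagosome and hold cargo receptors there, all rose with I-BET151 and with ITF2357. Map1lc3b, the gene of LC3B, had 116, 123 and 124 CPM in the JQ1 libraries, 212, 223 and 224 CPM in the I-BET151 libraries, 138, 131 and 133 CPM in the ITF2357 libraries and 119.7, 117 and 115 CPM in the control libraries. Only the JQ1 libraries overlapped the control. Map1lc3b rose by 0.91 ± 0.03 (SE, edgeR adjusted p = 1.87e-22) with I-BET151 and by 0.19 ± 0.03 (SE, edgeR adjusted p = 9.31e-06) with ITF2357, against 0.05 ± 0.03 (SE, edgeR adjusted p = 0.379) with JQ1. Gabarapl1, a member of the GABARAP branch, had 72.8, 77 and 77.7 CPM in the JQ1 libraries, 125, 125 and 129 CPM in the I-BET151 libraries, 94.3, 94.5 and 96.9 CPM in the ITF2357 libraries and 66.2, 74 and 74.4 CPM in the control libraries. It was highest with I-BET151, intermediate with ITF2357, and the JQ1 libraries overlapped the control. The rises were 0.82 ± 0.04 (SE, edgeR adjusted p = 5.53e-19) with I-BET151 and 0.41 ± 0.04 (SE, edgeR adjusted p = 6.65e-11) with ITF2357, and the JQ1 value was 0.08 ± 0.04 (SE, edgeR adjusted p = 0.144). Gabarapl2, also known as GATE-16, had 30.1, 31.8 and 30.2 CPM in the JQ1 libraries, 55.9, 53.4 and 53.1 CPM in the I-BET151 libraries, 40.9, 41.7 and 40.5 CPM in the ITF2357 libraries and 27.3, 28.2 and 27.5 CPM in the control libraries. It followed the same order, with all treated libraries above the control. Gabarapl2 rose by 0.97 ± 0.05 (SE, edgeR adjusted p = 4.76e-18) with I-BET151 and by 0.57 ± 0.05 (SE, edgeR adjusted p = 1.17e-11) with ITF2357, while its call with JQ1 (0.15, edgeR adjusted p = 0.0363) was lost when any of the 6 JQ1 and control libraries was left out.

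The 4 genes of autophagy initiation rose with I-BET151, and 2 of them with ITF2357. Ulk1, the kinase that starts autophagosome formation, had 65, 62.7 and 62.2 CPM in the JQ1 libraries, 131, 125 and 134 CPM in the I-BET151 libraries, 78.9, 71.9 and 86.2 CPM in the ITF2357 libraries and 60.3, 62.5 and 62.9 CPM in the control libraries. The I-BET151 libraries were far above the control, the ITF2357 libraries spread more widely above it, and the JQ1 libraries overlapped it. Ulk1 rose by 1.07 ± 0.05 (SE, edgeR adjusted p = 1.86e-20) with I-BET151 and by 0.36 ± 0.05 (SE, edgeR adjusted p = 5.88e-08) with ITF2357, with 0.03 ± 0.05 (SE, edgeR adjusted p = 0.685) under JQ1. Wipi1, which reads phosphatidylinositol 3-phosphate on the forming membrane, had 70.7, 72.8 and 71.7 CPM in the JQ1 libraries, 87.4, 97.2 and 94.9 CPM in the I-BET151 libraries, 79, 74.2 and 73.8 CPM in the ITF2357 libraries and 66.1, 64.9 and 59.5 CPM in the control libraries. All treated libraries lay above the control, highest with I-BET151. Wipi1 rose by 0.55 ± 0.04 (SE, edgeR adjusted p = 4.65e-13) with I-BET151, by 0.25 ± 0.04 (SE, edgeR adjusted p = 8.93e-06) with ITF2357 and by 0.18 ± 0.04 (SE, edgeR adjusted p = 0.00308) with JQ1, the last being the largest called rise of the 40 genes with JQ1 and not called without control library 3. Becn1, a subunit of the lipid kinase complex that makes this phosphoinositide, rose by 0.36 with I-BET151, and Atg9a, the scramblase of the vesicles that seed the membrane, by 0.28, a call lost with library totals.

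The genes of the conjugation machinery, which attaches ATG8 proteins to lipid, had called values between -0.21 and 0.39. With I-BET151, Atg12 rose by 0.39, Atg7, the activating enzyme, by 0.27 and Atg5, the partner of ATG12, by 0.20. The calls of Atg7 and Atg5 were lost with library totals, and that of Atg5 also without control library 1. Atg16l1, which brings the ATG12 and ATG5 conjugate to the membrane, fell by 0.19 with I-BET151 and by 0.21 with ITF2357. Atg5 rose by 0.24 with ITF2357. None of the 4 was called with JQ1, where the values lay between -0.12 and 0.03, but Atg16l1 was called lower with library totals (-0.13), in a fit of only the groups compared (-0.13) and without ITF2357 library 3 (-0.12).

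Sqstm1 fell with all 3 compounds. It encodes p62, the receptor that ties ubiquitinated cargo to ATG8 proteins and is itself degraded by autophagy, a loss of protein that mRNA does not show. Sqstm1 (chr11:50199366-50210827, minus strand, mm10) had 381, 377 and 385 CPM in the JQ1 libraries, 406, 411 and 418 CPM in the I-BET151 libraries, 323, 307 and 318 CPM in the ITF2357 libraries and 568, 576 and 569.6 CPM in the control libraries. The 9 treated libraries, at 307 to 418 CPM, lay far below the 3 control libraries, at 568 to 576 CPM. Sqstm1 fell by 0.85 ± 0.02 (SE, edgeR adjusted p = 2.04e-25) with ITF2357, by 0.58 ± 0.02 (SE, edgeR adjusted p = 6.95e-19) with JQ1 and by 0.47 ± 0.02 (SE, edgeR adjusted p = 1.47e-18) with I-BET151, the largest called fall of the 40 genes in each comparison. Over all alternatives tried the JQ1 value stayed between -0.59 and -0.56. Its exons share bases with Mrnip on the opposite strand, and the sources used here do not state whether the counting used strand.

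**Figure D2:**
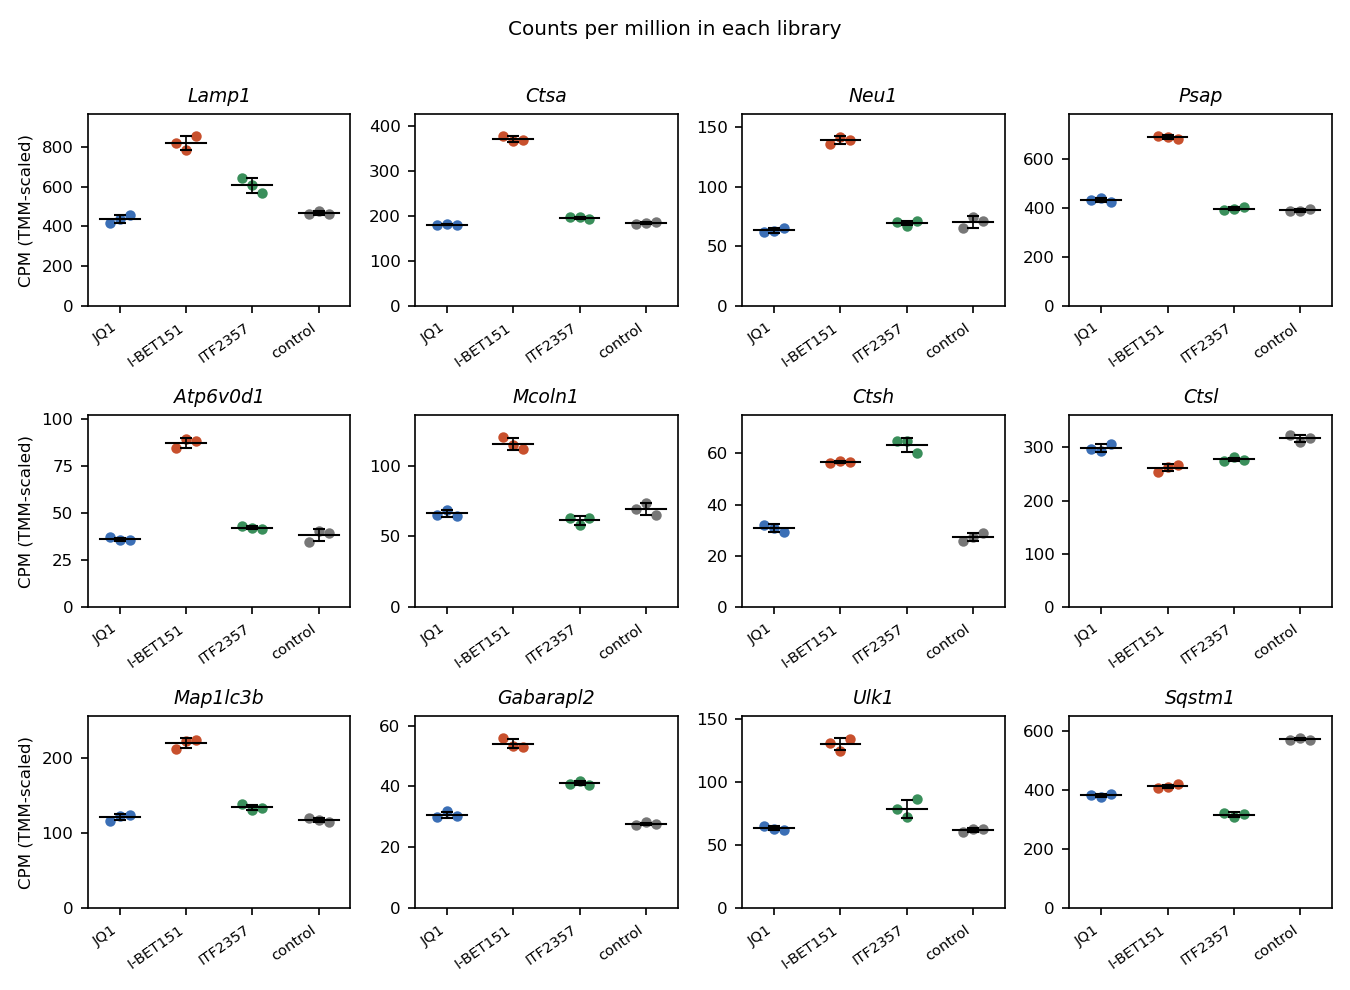
CPM scaled with TMM factors (y axis, from 0) of 12 of the 40 genes in every library, by group (x axis); points are libraries, horizontal lines means and bars SD (n = 3). The I-BET151 libraries are highest for 9 of the genes, Ctsh is highest with ITF2357, and Ctsl and Sqstm1 are highest in the control libraries.

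JQ1 and I-BET151 act on the same protein family and were given at the same dose for the same time, so they were compared directly. Of the 40 genes, 3 were higher and 30 lower with JQ1 than with I-BET151, where 30.7% of all genes were higher and 29.8% lower, and the median was -0.40 against 0.01 for all genes. The largest differences were in Atp6v0d1 (-1.27 ± 0.05 SE, edgeR adjusted p = 1.33e-21), Neu1 (-1.14 ± 0.04 SE, edgeR adjusted p = 1.99e-22), Ctsa (-1.04 ± 0.03 SE, edgeR adjusted p = 5.64e-27) and Ulk1 (-1.04 ± 0.05 SE, edgeR adjusted p = 4.34e-20). Lamp1 (-0.91), Ctsh (-0.89) and Map1lc3b (-0.86) were lower with JQ1 too. The 3 genes that were higher with JQ1 were Tfeb (0.58 ± 0.10 SE, edgeR adjusted p = 3.58e-06), Gusb (0.44 ± 0.05 SE, edgeR adjusted p = 4.34e-09) and Ctsl (0.20 ± 0.03 SE, edgeR adjusted p = 1.05e-07). With library totals, which moved the median of all genes by 0.15, 8 genes were higher and 26 lower.

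For 7 genes the difference between JQ1 and I-BET151 did not pass the test with TMM factors and all 12 libraries. The log2 differences were 0.09 (95% interval 0.00 to 0.18) for Tfe3, 0.07 (95% interval -0.07 to 0.22) for Cln3, 0.06 (95% interval -0.01 to 0.14) for Gaa and 0.06 (95% interval -0.04 to 0.17) for Atg16l1. They were -0.01 (95% interval -0.09 to 0.07) for Npc2, -0.12 (95% interval -0.28 to 0.04) for Gla and -0.15 (95% interval -0.44 to 0.15) for Sgsh, the widest interval belonging to the gene with the fewest counts. The intervals are unadjusted. Of the 7, Tfe3 (0.24), Gaa (0.22), Cln3 (0.23), Atg16l1 (0.22) and Npc2 (0.14) were called higher with JQ1 under library totals. Tfe3 (0.14) and Gaa (0.11) were also called with upper quartile factors, and Tfe3 in a fit of only the groups compared, with a filter on a mean of at least 1 CPM and without JQ1 library 2 or I-BET151 library 1. Sqstm1 was called lower with JQ1 by a small margin (-0.11, 95% interval -0.16 to -0.06), and library totals turned that value to 0.04. The Ctsz value of -0.11 likewise became 0.04 with library totals and was not called with upper quartile factors or without JQ1 library 2 or I-BET151 library 1.

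**Figure D3:**
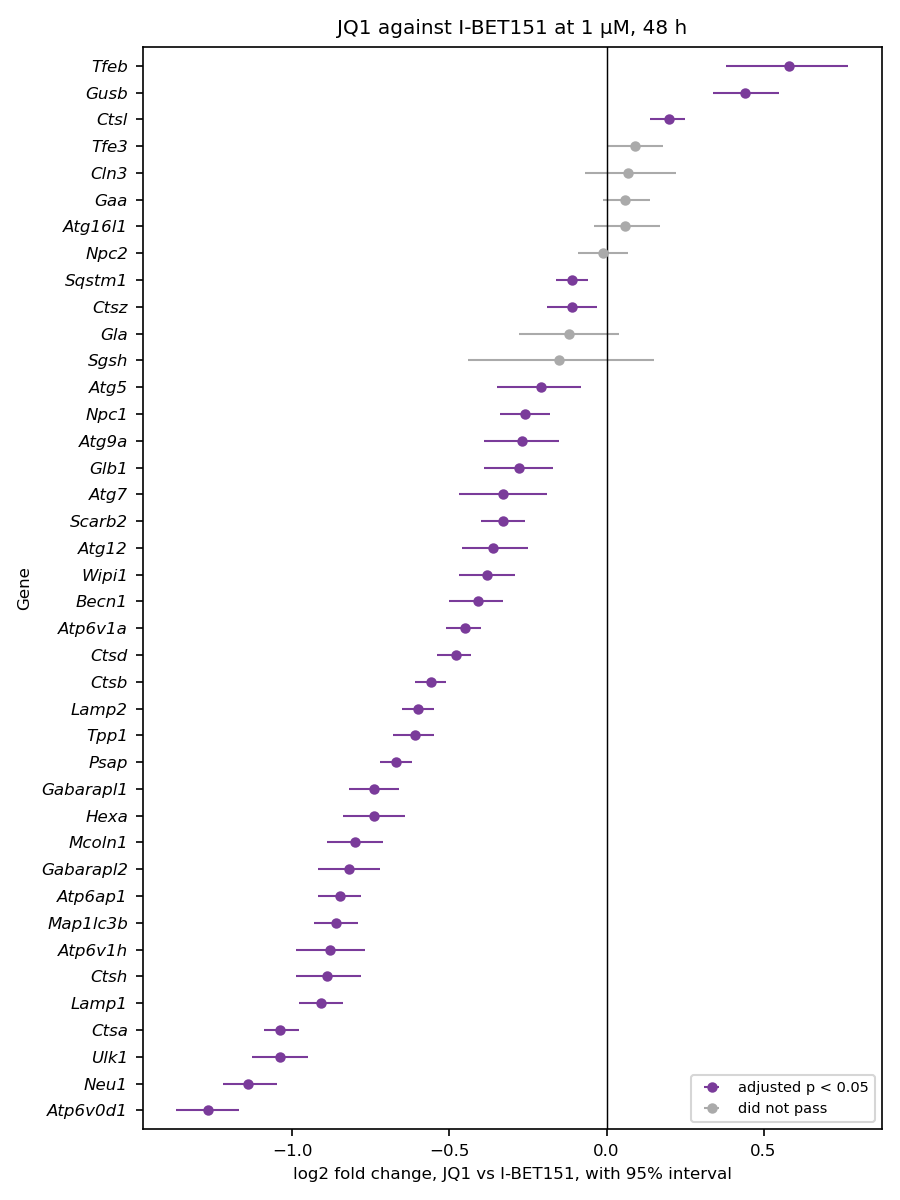
Log2 fold change of JQ1 against I-BET151 (x axis) for the 40 genes (y axis, in order of the value), with 95% intervals; purple points passed the test and grey points did not. Most genes lie left of 0, lower with JQ1, down to -1.27 for Atp6v0d1, and Tfeb lies farthest right at 0.58.

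ITF2357 was set against JQ1 and I-BET151 in the same way. Against JQ1, 19 of the 40 genes were higher and 8 lower with ITF2357 (25.4% and 23.2% of all genes), with a median of 0.08. Ctsh (1.04 ± 0.05 SE, edgeR adjusted p = 1.78e-18), Lamp1 (0.48) and Gabarapl2 (0.42) differed most upward, and Sqstm1 (-0.27 ± 0.02 SE, edgeR adjusted p = 1.25e-11), Npc2 (-0.26) and Gaa (-0.25) most downward. With upper quartile factors this split became 12 higher and 13 lower. Against I-BET151, 5 were higher and 31 lower with ITF2357 (31.9% and 30.9% of all genes), with a median of -0.33. Gusb (0.60 ± 0.05 SE, edgeR adjusted p = 2.49e-12) and Tfeb (0.36) were the most raised, and Ctsh was higher by 0.16. Atp6v0d1 (-1.05 ± 0.05 SE, edgeR adjusted p = 1.46e-19), Neu1 (-1.0) and Ctsa (-0.92) were the most lowered, and Sqstm1 was lower too (-0.38). With library totals, which moved the median of all genes by 0.14, 8 were higher and 23 lower.

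Levels were compared between genes only per length, as RPKM from the same scaled counts and the deposited gene lengths. The median of the 40 genes was 16.2 RPKM in JQ1, 21.5 RPKM in I-BET151, 17.4 RPKM in ITF2357 and 15 RPKM in control libraries, and that of all genes of the table was 4.14 RPKM in JQ1, 4.03 RPKM in I-BET151, 4.11 RPKM in ITF2357 and 4.15 RPKM in control libraries. Lamp1 ranked highest of the 40 in every group, at 163 ± 7.38 RPKM in JQ1, 306 ± 12.9 RPKM in I-BET151, 227 ± 13.8 RPKM in ITF2357 and 175 ± 3.87 RPKM in control cells (mean ± SD, n = 3). In control cells Sqstm1 followed at 170.1 ± 1.24 RPKM and Psap at 142 ± 2.3 RPKM, while Psap stood above Sqstm1 in all 3 treated groups. Tfeb was second to last in every group, at 2.24 RPKM in JQ1, 1.5 RPKM in I-BET151, 1.92 RPKM in ITF2357 and 1.95 RPKM in control cells, and Sgsh was last. Atp6v0d1 ranked 10 among the 40 genes in I-BET151 cells and 15 in control cells.

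The rest of the pathway was described through 138 other genes in 10 lists, of which 131 were measured. With I-BET151, 98 of the 131 (74.8%) were higher and 11 (8.4%) lower, against 30.5% and 32.6% of all genes, with a median of 0.39. With ITF2357, 52 (39.7%) were higher and 28 (21.4%) lower, against 27.6% and 26.4% of all genes, with a median of 0.03. With JQ1, 24 (18.3%) were higher and 20 (15.3%) lower, against 12.5% and 12.3% of all genes, with a median of 0.01. Scaling by library totals, an alternative chosen for these lists after seeing the data, gave 78 higher and 19 lower with I-BET151 (median 0.23). All 12 measured proton pump genes outside the 40 and all 14 such lysosome membrane genes rose with I-BET151 (10 and 13 of them with library totals). So did 20 of 31 other hydrolases and activators (5 fell), 17 of 24 genes of mTORC1 and its regulators at the lysosome (2 fell), 9 of 14 of autophagy initiation (2 fell) and 7 of 11 of autophagosome fusion (0 fell). With library totals these counts became 16 higher and 6 lower for hydrolases and activators, 12 and 3 for mTORC1, 7 and 2 for fusion, and 5 and 4 for initiation, whose median was then 0.02. Other ATG8 and conjugation genes had 5 of 7 higher and 1 lower with I-BET151, and other regulators 3 of 5 higher and 1 lower. With library totals each of these lists had 2 higher and 2 lower. Of the 7 other autophagy receptors, 6 rose with I-BET151 and none fell, while Sqstm1, the receptor among the 40, fell. Of the 6 hydrolase sorting genes, 5 rose with I-BET151 (median 0.74) and 5 with ITF2357 (median 0.31). With ITF2357 the mTORC1 list split into 9 higher and 9 lower.

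By size of change in each comparison, 6 of the 131 other pathway genes were chosen for a closer description. Sort1, the sortilin receptor that carries hydrolases to the lysosome, rose by 2.52 ± 0.06 with I-BET151 (SE, edgeR adjusted p = 1.49e-27) and by 0.49 ± 0.07 with JQ1 (SE, edgeR adjusted p = 1e-06). With ITF2357 it rose by 1.18 ± 0.06 (SE, edgeR adjusted p = 3.22e-17). It had 23.7 ± 0.0774 CPM in JQ1, 96.2 ± 6.45 CPM in I-BET151, 38.3 ± 1.29 CPM in ITF2357 and 16.8 ± 1.77 CPM in control libraries (mean ± SD, n = 3). Sesn2 and Sesn3 encode sestrins, which restrain mTORC1, and they went in opposite directions. Sesn3 rose by 0.49 with JQ1, by 1.83 with I-BET151 and by 1.23 with ITF2357, and Sesn2 fell by 0.58 with JQ1, by 2.01 with I-BET151 and by 2.30 with ITF2357. Flcn, the folliculin gene that acts on the Rag GTPases upstream of TFEB, fell by 0.44 with JQ1 and by 0.86 with ITF2357, and its I-BET151 value was 0.04 (edgeR adjusted p = 0.549). Rragb, which encodes a Rag GTPase, rose by 2.05 ± 0.36 with ITF2357 at a low level, 1.5 ± 0.259 CPM in ITF2357 against 0.357 ± 0.0567 CPM in control libraries. Ctsc, the dipeptidyl peptidase cathepsin C, fell by 1.56 ± 0.04 with I-BET151 (SE, edgeR adjusted p = 3.3e-26), with 31.9 ± 0.871 CPM in I-BET151 against 93.8 ± 2.83 CPM in control libraries (mean ± SD, n = 3). It also fell by 0.22 with ITF2357, but it rose by 0.25 with JQ1 (edgeR adjusted p = 1.11e-06).

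**Figure D4:**
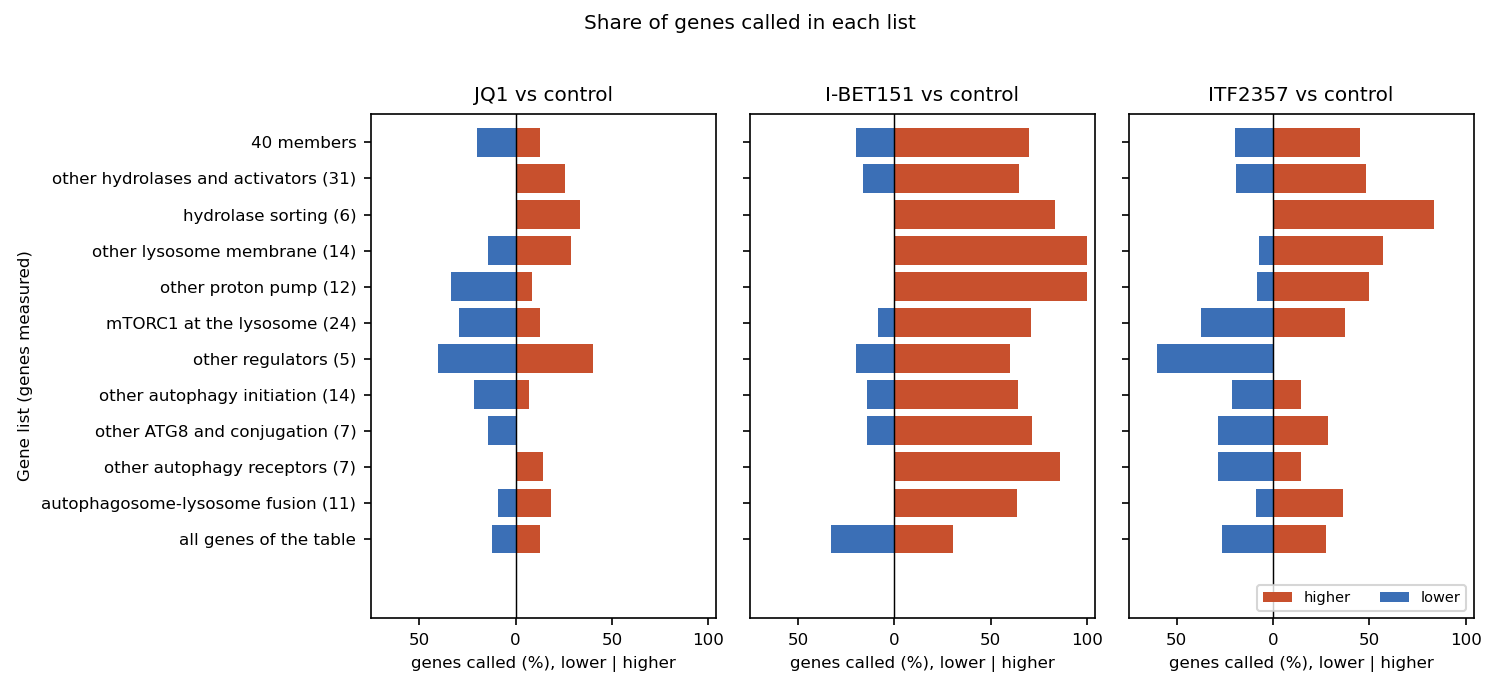
Share of genes called higher (right of 0, orange) and lower (left of 0, blue) in the 40 genes (named 40 members), in 10 lists of other pathway genes and in all 17340 genes (rows), with each compound against control (panels). With I-BET151 the other proton pump and other lysosome membrane lists reach 100% higher, against 30.5% of all genes.

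The promoter stretches given above were set beside the I-BET151 response. Of the 7 genes with the CLEAR core, 5 were called higher and 1 lower, with a median log2 fold change of 0.64, from -0.26 for Cln3 to 1.20 for Atp6v0d1. Of the 26 genes with a window and without the core, 18 were higher and 6 lower, with a median of 0.29. The E-box, within a core or outside it, gave the other order: the 14 genes with it had 9 higher and 3 lower and a median of 0.25, and the 19 without it 14 higher and 4 lower and a median of 0.63. Gla, with 2 copies of the core at -228 and -195, was not called (0.08), while Ctsa, with 2 copies at -13 and 4, rose by 1.01. With JQ1, 1 of the 7 genes with the core rose and 1 fell (median -0.04), and with ITF2357 4 rose and 1 fell (median 0.09). No test was made of these differences.

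**Figure D5:**
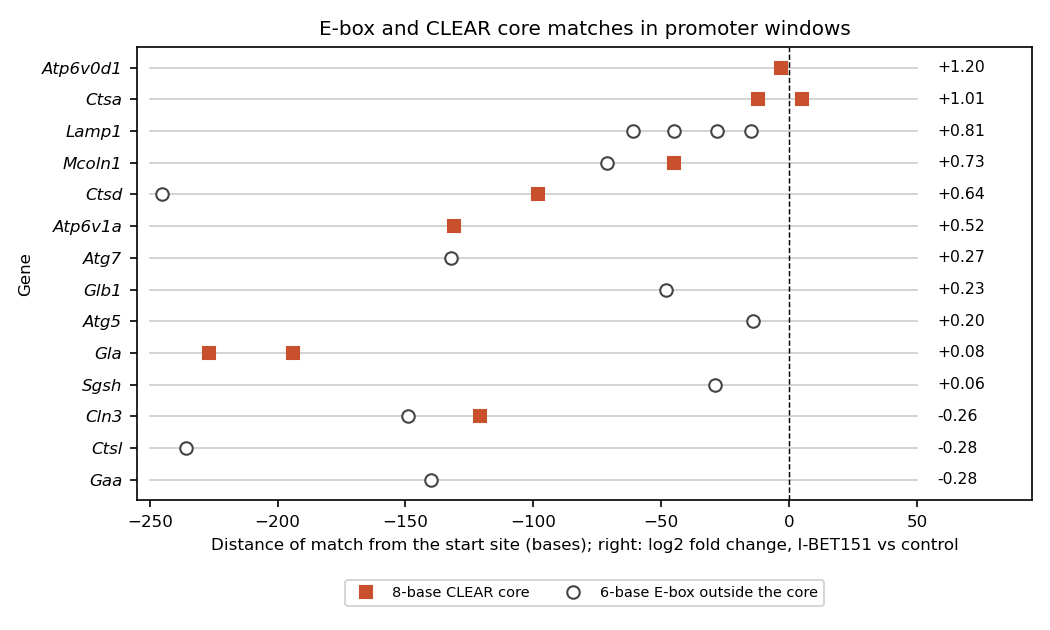
Distance from the start site (x axis, bases, 0 at the dashed line) of E-box matches in the promoter windows of the 14 genes that hold one (y axis, in order of the log2 fold change of I-BET151 against control, printed at the right). Orange squares lie in a CLEAR core and open circles do not; Atp6v0d1, at 1.20, is at the top and Gaa and Ctsl, at -0.28, at the foot.

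In the authors' deposited table of fold changes and false discovery rates against control, the same threshold called 5 of the 40 genes higher and 7 lower with JQ1, 28 higher and 8 lower with I-BET151, and 18 higher and 8 lower with ITF2357. These calls matched those given here for 39 of 40 genes under JQ1, where Lamp1 differed, and for 40 of 40 under I-BET151 and under ITF2357. Annotated exons of 17 of the 40 genes share bases with another gene, in 15 with 1 on the opposite strand, and for 10 the other gene was in the table. The shared bases are a part of each gene's exons, from 10 bases for Ctsz with Nelfcd to 580 bases for Sqstm1 with Mrnip among genes in the table. Some overlaps with genes outside the table were larger, up to 3104 of 7065 bases for Becn1 with Cntd1 on the opposite strand. On the same strand, Atg9a shares 1832 bases with Gm29253 and Ctsd shares 808 bases with Gm49369, both outside the table. Without strand, reads from bases shared by opposite strands cannot be told apart. The exons of Glb1 share bases with Tmppe on the same strand, those of Npc1 with Rmc1, of Cln3 with Apobr, of Ctsz with Nelfcd, of Atp6v1h with Rgs20, of Map1lc3b with Zcchc14 and of Atg9a with Ankzf1 on the opposite strand.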

How the data were processed

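RNA of KPC cells was sequenced in 12 libraries of 21 to 31.2 M counts. Per the submitters' processing notes, STAR 2.7.2a, featureCounts in Subread 2.0.1, edgeR 3.38.4 and build mm10 were used. The authors deposited raw counts per gene, gene lengths, log2 CPM, log2 RPKM, log2 fold changes, p-values and false discovery rates; the annotation release and strand setting are not given in the sources used here. Everything reported was computed from the deposited counts, except calls credited to the authors.

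Counts were fitted with edgeR 4.0.16 in R 4.3.3 (filterByExpr, TMM factors, quasi-likelihood test, all 12 libraries in 1 model) and called where the p adjusted by Benjamini-Hochberg over 17340 genes was under 0.05; the code was tested on simulated data. All 6 pairs of groups were compared. Alternatives were other scalings, filters and thresholds, DESeq2 1.42.0, 2-group fits, a replicate block and leaving out each library. The 40 genes and all lists were chosen with earlier results of these data known. Values in every library were given for genes fixed by name and for the largest called changes of a comparison, and genes outside the 40 were named by the 2 largest rises and falls per comparison with the control. Of 17340 gene IDs, 99.0% were found in GENCODE M21, from which exon overlaps were taken.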

Additional observations from a re-analysis of the deposited data

How the results depend on the processing

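Of 4800 values recomputed under an alternative, 118 lost a call, 48 gained one and 9 changed sign with a call before or after. In the other 4625 the call stayed the same, and among these, values called under neither setting may differ in sign. The 4800 include a fit without the filter on low counts. It could change no call, since that filter removed 0 genes. A fold of at least 1.5 cut the higher and lower counts to 0 and 0 for JQ1, 17 and 0 for I-BET151 and 1 and 1 for ITF2357 against control, 0 and 16 for JQ1 against I-BET151, 1 and 0 for ITF2357 against JQ1, and 1 and 10 for ITF2357 against I-BET151. At an adjusted p under 0.01, JQ1 against control had 3 higher and 4 lower. Shares of all genes were not worked out for this threshold, or for 1.5-fold between compounds, so those counts have no share beside them. Upper quartile factors gave 4 lower for JQ1 against control, 5 higher for JQ1 against I-BET151, and 12 higher and 13 lower for ITF2357 against JQ1. Library totals gave 8 higher for JQ1 against I-BET151 and 8 higher for ITF2357 against I-BET151. Leaving out 1 library at a time gave 3 to 6 higher and 4 to 9 lower for JQ1 against control. The 9 sign changes that involve a call came with library totals: I-BET151 against control for Ctsz (-0.05) and Npc2 (-0.15), JQ1 against I-BET151 for Ctsz (0.04), Npc2 (0.14) and Sqstm1 (0.04), and ITF2357 against I-BET151 for Ctsd (0.03), Ctsz (0.12), Scarb2 (0.05) and Tfe3 (0.10). With TMM factors the 9 values had lain between -0.11 and 0.11. Library totals moved the median of all genes by -0.16, 0.15 and 0.14 in these comparisons, in the order given. Why the scalings differ was not tested. With the replicate number as a block the 12 counts stayed as given but for ITF2357 against JQ1, where 7 genes in place of 8 were lower (Tfeb at -0.22, edgeR adjusted p = 0.0554). Same-numbered libraries deviated together with correlations of -0.152 to 0.0622, so the numbers were not taken to pair the libraries. Depth limited Sgsh most, at 3.99 to 6.55 CPM.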
